A study of Mus musculus with 2 samples.

Results

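The nuclear factor I (NFI) family consists of 4 genes in the mouse, Nfia, Nfib, Nfic and Nfix. CTCF is a DNA-binding protein with zinc fingers that insulates neighbouring genes and marks the feet of chromatin loops, and its sites were examined at these genes in newborn hindbrain. A site was counted when its summit lay within one of the genes (GENCODE vM21 annotation, mm10) or within 100 kb of either end. This gave 85 of the 62686 peaks in the authors' optimal set, the list kept after filtering by the irreproducible discovery rate (IDR), which measures how well peak ranks repeat between lists. The tissue came from mice of the strain B6NCrl on postnatal day 0. Hindbrains from several dissections were pooled and pulverised, and chromatin was immunoprecipitated with a CTCF antibody for sequencing. No treatment and no allele other than the strain is named, and sex was not recorded. There are 2 libraries in a single group, labelled biological replicates 1 and 2. Both come from 1 pooled tissue sample, so differences between them may be only technical. A pooled sample of whole hindbrain mixes all its cell types, and a peak list offers no marker level against which the tissue label could be checked. Each library has its own list of 300000 candidate peaks, and a rank in a library below is the place in that list of the strongest overlapping peak, with 1 as the strongest. Sequencing depth is unknown here, as no counts of reads come with the lists.

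NFI proteins bind DNA as dimers through a conserved domain at their amino terminus and activate or repress transcription. In the developing nervous system they are known for starting the production of glia, for turning radial glia away from self-renewal and for the maturation of cerebellar granule neurons. Outside the brain, Nfic is known for its part in tooth root formation and Nfix for the switch to fetal muscle fibres. CTCF reads a long asymmetric DNA sequence, and the strand of that sequence sets the direction in which the protein sits on DNA. Loops tend to form between sites that point towards each other.

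The sequences below were read from the GRCm38 reference at peaks of the NFI windows, 5′ to 3′ on the strand of the CTCF match. The capitals mark the 14 bp match to the CTCF core consensus, with 8 bases on each side in lower case. The first 6 are all the peaks in the NFI windows whose core matched the consensus without a mismatch. They lie in 3 of the 4 windows, and none lies in that of Nfia.
Nfib intron, chr4:82614360-82614389, minus strand: acaaattgCCACTAGATGGCACtgcttgtt
Nfic downstream flank, chr10:81305014-81305043, minus strand: tacacctgCCACTAGGGGGCACgctgcttc
Nfic upstream flank, chr10:81550416-81550445, minus strand: cacagcggCCACCAGAGGGCACcataggcg
Nfix intron, chr8:84704581-84704610, minus strand: tcccgcctCCAGCAGGGGGCGCcgatgaga
Nfix intron, chr8:84709337-84709366, plus strand: cagggaagCCAGCAGGGGGCGCtgccttcc
Nfix upstream flank, chr8:84815721-84815750, minus strand: gcttttagCCACTAGGTGGCACcgcgtccc
The strongest peak of each gene had 1 mismatch (Nfic and Nfix) or 2 (Nfia and Nfib).
Nfia upstream flank, chr4:97751133-97751162, plus strand: ggaactcgACTGTAGGTGGCGCcctgcttc
Nfib intron, chr4:82643163-82643192, plus strand: gttattcaCCACTCGAGGGAGCccaagtgt
Nfic upstream flank, chr10:81502810-81502839, plus strand: acgcgcggCCACCAGGGGGAGGtatgtcct
Nfix intron, chr8:84737727-84737756, minus strand: tactgtgaCCGGCAGAGGGCAGctagtgtt

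Nfia (ENSMUSG00000028565.18) lies on the plus strand of chromosome 4, from 97772734 to 98118874. Nfib (ENSMUSG00000008575.17) lies on the minus strand of the same chromosome, from 82290173 to 82705750. Nfic (ENSMUSG00000055053.18) is on the minus strand of chromosome 10, from 81396186 to 81455635, and Nfix (ENSMUSG00000001911.16) on the minus strand of chromosome 8, from 84699876 to 84800344. The 4 windows differed widely in how many sites they held. Nfic had the most, with 34 peaks in 259.45 kb. Nfix had 26 in 300.5 kb, Nfia 14 in 546.1 kb and Nfib 11 in 615.6 kb. Per 100 kb of window this was 13.1 peaks for Nfic, 8.65 for Nfix, 2.56 for Nfia and 1.79 for Nfib. The median over the windows of all 21938 protein-coding genes, drawn in the same way, was 3.95 per 100 kb, with quartiles of 1.96 and 6.36. The density at Nfic was higher than in 99.2% of these windows and that at Nfix higher than in 89.1%. Nfia and Nfib stood below the median, higher than 32.1% and 22.5%. Windows of neighbouring genes overlap, so these percentiles only describe where a window lies. With flanks of 50 kb the Nfic window was shorter and held 20 peaks.

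**Figure D1:**
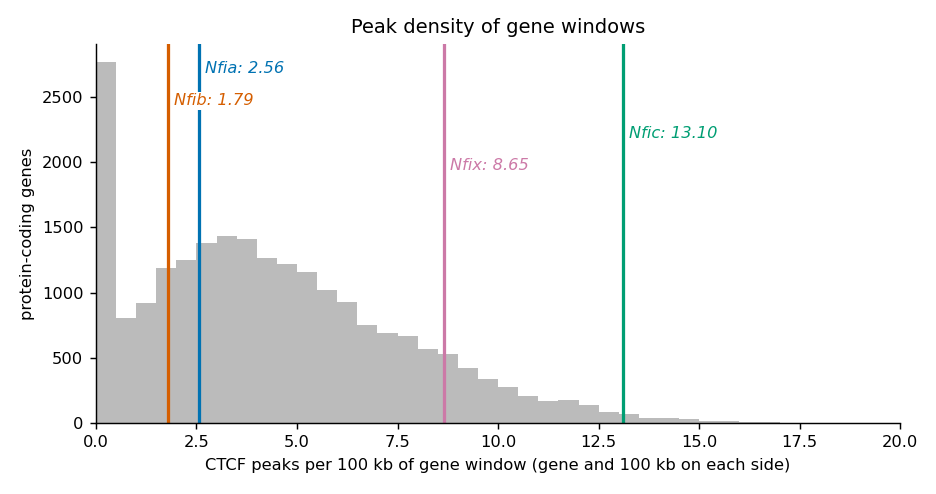
Histogram of CTCF peaks per 100 kb over the windows of all protein-coding genes (gene and 100 kb on each side; y axis, number of genes), with a vertical line for each NFI gene. Nfib (1.79) and Nfia (2.56) lie in the lower part of the distribution, Nfix (8.65) and Nfic (13.1) in its upper tail.

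The number of other genes nearby moved in the same order. The Nfic window touched 18 protein-coding genes, Nfic included, and the Nfix window 14, while the windows of Nfia and Nfib touched 2 each. In genes per 100 kb, Nfic stood above 95.0% of windows, Nfix above 81.7%, Nfia above 2.64% and Nfib above 2.06%. The part of gene density in the number of CTCF sites was not tested. Within the gene bodies of GENCODE the counts were 8 for Nfia, 8 for Nfib, 10 for Nfic and 10 for Nfix, in genes of 346.1, 415.6, 59.45 and 100.5 kb. These counts depend on where a gene is taken to begin. With the bounds of RefSeq, which start Nfia farther upstream and Nfib and Nfic farther downstream and end Nfix earlier, the bodies held 18, 1, 5 and 7 peaks in the same order. Of all protein-coding genes, 54.0% had at least 1 summit in the gene body.

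Peak strength is given as the signal that the authors' peak caller wrote, whose scale no source states. Over the 85 peaks it ran from 19.9 to 524.5 with a median of 109.2, against a median of 73.9 over all optimal peaks. The median was 54.4 at Nfia, 133.7 at Nfib, 125.6 at Nfic and 112.2 at Nfix. The median of the 11 sites of Nfib was thus close to that of the 34 sites of Nfic. Among the 85 peaks, 17 were within the 10000 strongest of the optimal set, where 16.0% of all optimal peaks stand. Of these, 8 were at Nfic, 6 at Nfix, 2 at Nfia and 1 at Nfib. The pooled list, candidates called from both libraries together without the IDR filter, held 134 summits in the Nfic window, 113 at Nfix, 87 at Nfib and 84 at Nfia. These counts are not scaled to the length of the windows, which was greatest at Nfib and least at Nfic.

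**Figure D2:**
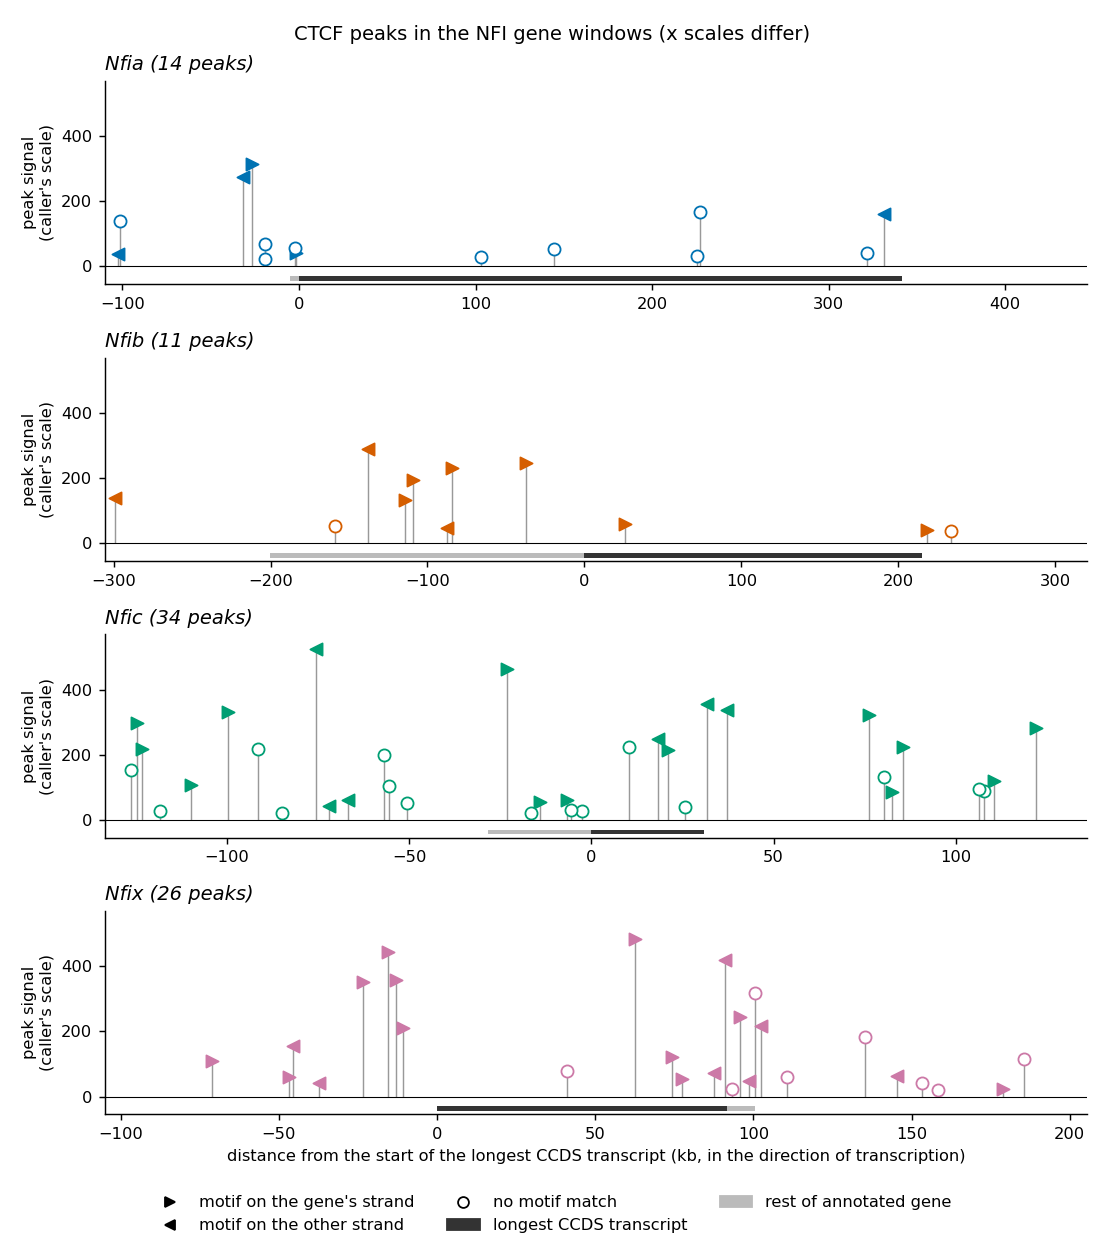
Signal of each of the 85 peaks (y axis, caller's scale) against its distance from the start of the longest CCDS transcript (x axis, kb in the direction of transcription), with 1 panel per gene and x scales that differ. Triangles point right where the CTCF motif lies on the gene's strand and left where it lies on the other, and circles have no match. The strongest sites of Nfib lie to the left of 0, outside its CCDS transcript, and no peak of Nfia lies past the end of the gene.

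CTCF sites at start sites were weak and lay at transcripts outside the consensus coding set. With all annotated transcripts counted, 3 of the 4 genes had a summit within 1 kb of a start site, Nfia, Nfic and Nfix, and Nfib had none. Over all protein-coding genes 39.8% had one. At Nfia the peak (chr4:97880331-97880650) had a signal of 27.2 and lay 372 bp from the start of the transcript Nfia-207. It ranked 50472 in replicate 1 and 171398 in replicate 2. At Nfic the peak (chr10:81401386-81401705, signal 40.2) lay 992 bp from the start of the 2-exon transcript Nfic-206, with ranks of 56821 and 36184 in replicates 1 and 2. At Nfix the peak (chr8:84707035-84707354, signal 22.4) lay 521 bp from the start of Nfix-208, with ranks of 58419 and 79348. None of the 3 start-site peaks held a CTCF core match or was in the conservative IDR set, and 1 was among the 62686 strongest peaks of both libraries. When the 62686 strongest peaks of replicate 2 stood in for the optimal set, without replicate 1, the count fell to 1 gene, Nfic. Without replicate 2 it was 3. In the conservative IDR set the genes with a start-site peak were Nfib and Nfic, so Nfia and Nfix were lost and Nfib was gained. The peak of Nfic was then another one, with a signal of 17.8, at 178 bp from the start of Nfic-205.

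No optimal peak lay at the start of a CCDS transcript. The CCDS (consensus coding sequence) transcripts of the 4 genes have 9 start sites, and 0 of the 4 genes had an optimal summit within 1 kb of any of them. Among 20331 protein-coding genes with such a transcript, 35.5% had one. With the outermost 5′ end of each gene as its only start, the count was likewise 0 of 4, against 31.8% of protein-coding genes. The start of the longest CCDS transcript was rich in CpG at Nfia (observed to expected ratio 0.931), Nfib (0.914) and Nfix (1.12), and less so at Nfic (0.493). Among genes with a CCDS transcript and a ratio over 0.6, 51.6% had a summit within 1 kb of a CCDS start. The nearest optimal summit was 1422 bp away from a CCDS start at Nfia, 2594 bp at Nfic, 10.7 kb at Nfix and 25.7 kb at Nfib.

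Weak candidate peaks were nevertheless listed within 1 kb of all 9 CCDS start sites in the pooled list. Their strongest signals ran from 9.46 at Nfia to 19.2 at Nfix. Neighbouring start sites often shared a candidate, so there were fewer candidates than start sites. The pooled list holds 251251 peaks, and no share over the CCDS start sites of other genes was computed for it. At Nfib the candidate stood 828 bp from the CCDS start, with a signal of 18.5 and ranks of 79511 and 75049 in replicates 1 and 2. This candidate was in the conservative IDR set, though not in the optimal one. At Nfic (pooled signal 11.1) replicate 1 listed a candidate at rank 119947 and replicate 2 listed none. At the upstream CCDS start of Nfix (pooled signal 19.2) the ranks were 70414 and 141934. At Nfia the pooled candidate (9.46) lay 871 bp from the start of Nfia-202. Replicate 2 listed another one 385 bp from that start, at rank 187422, and replicate 1 listed none within 1 kb.

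**Figure D3:**
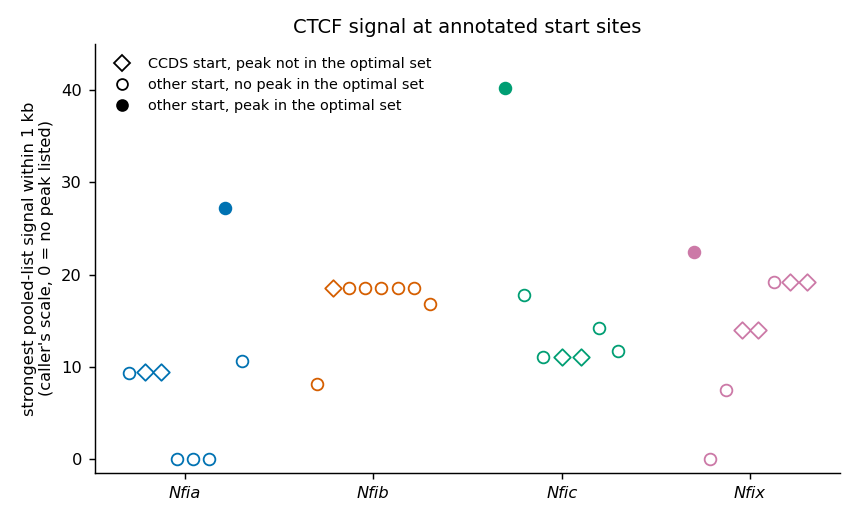
Strongest signal in the pooled list within 1 kb of each of the 31 annotated start sites of the NFI genes (y axis, caller's scale; 0 where no peak is listed), by gene. Diamonds are CCDS start sites and filled symbols are peaks of the optimal set. The 3 filled circles, at 22.4, 27.2 and 40.2, are at other start sites, and all 9 diamonds lie at 19.2 or below.

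Introns held 32 of the 85 peaks, and exons away from a start site 1. Where these introns lie depends on the transcript. Of the 36 peaks in gene bodies, 18 lay between the ends of the CCDS transcripts, 15 upstream of every CCDS start and 3, at Nfix, past the last CCDS end.

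Nfib showed this most plainly. Its annotated body reaches far upstream through a single 2-exon transcript, Nfib-212, whose start lies at 82705750. The CCDS transcripts start at 82505308, and 7 of the 8 intron peaks lay upstream of that start. The strongest was the peak printed above (chr4:82643048-82643305), with a signal of 290.1 and ranks of 8140 and 7872 in replicates 1 and 2. It lay 137.9 kb upstream of the CCDS start and within 1 kb of the start of the processed pseudogene Gm11268. Next came peaks at chr4:82542202-82542433 (signal 246.8, ranks 11998 and 10318) and chr4:82589590-82589810 (230.7, ranks 11595 and 13730). The 1 intron peak inside the CCDS transcript (chr4:82479420-82479739) was weaker, with a signal of 58.0 and ranks of 39950 and 31979. From there to the next summit, past the end of the gene, no optimal peak was found over 192.5 kb, the longest interval between neighbouring summits in any of the 4 windows. With the gene bounds of RefSeq, which lack the upstream transcript, the Nfib window held 6 peaks.

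At Nfia, 7 intron peaks and the start-site peak were spread over the gene. The strongest intron peaks were at chr4:98004476-98004644 in intron 4 of the transcript Nfia-202 (signal 168.1, ranks 15959 and 20536) and at chr4:98109137-98109289 in intron 10 (160.3, ranks 18795 and 18141). The next (chr4:97775105-97775424, signal 56.6, ranks 37587 and 35726) lay 2343 bp upstream of the CCDS start, in an intron of the longer transcript Nfia-208. Neither this peak nor the one in intron 4 held a core match. Intervals of 104.3 kb and 95.0 kb without an optimal summit lay within the gene. The first of these begins 1422 bp upstream of the CCDS start and holds that start.

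At Nfic, the strongest intron peak (chr10:81450181-81450510) had a signal of 462.5, higher than 98.8% of all optimal peaks, and ranks of 1096 and 463. It lay 23.2 kb upstream of the CCDS start, inside the longer transcript Nfic-207. With this peak, 6 of the 10 peaks in the gene body lay upstream of every CCDS start, and 4 lay between the ends of the CCDS transcripts. The next strongest intron peaks were in the CCDS transcript Nfic-203. The peak at chr10:81408856-81409080 lay in intron 3 (248.9, ranks 10146 and 12201), within 1 kb of the start of the antisense gene Gm16104, and that at chr10:81416832-81417021 in intron 2 (222.4, ranks 11802 and 14744). The latter lay within 1 kb of the start of the gene Mir1191b and held no core match.

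At Nfix, the strongest intron peak (chr8:84737563-84737883) had a signal of 485.0, higher than 99.3% of optimal peaks, with ranks of 506 and 432. It lay in intron 2 of Nfix-202, 62.6 kb from its start. After it, the peak at chr8:84709220-84709496 in intron 9 had a signal of 421.0. Its ranks of 1054 and 2726 differed by 2.59 times, the most among the 75 NFI peaks with a signal of 30 or over. The next (chr8:84704481-84704699, signal 243.5, ranks 11588 and 11527) lay past the last CCDS end, in sequence shared with Lyl1. The only exon peak of the family (chr8:84699818-84700088, signal 318.6, ranks 6274 and 7044) lay in the last exon of the noncoding transcript Nfix-207 and within 1 kb of a start site of Trmt1, which encodes a tRNA methyltransferase. It held no core match within 50 bp of its summit.

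The flanks held 49 of the 85 peaks. Nfic had 24, Nfix 16, Nfia 6 and Nfib 3. All 6 flank peaks of Nfia lay upstream, and none was found in the 100 kb downstream of the gene. RefSeq starts Nfia at 97578066, and by its bounds all 6 lie inside the gene. In GENCODE all 6 lie inside another protein-coding gene, E130114P18Rik. The strongest of Nfia were at chr4:97751029-97751261 (signal 314.2, ranks 7171 and 6179) and chr4:97745871-97746107 (274.9, ranks 7843 and 11098). They lay 26.5 and 31.6 kb upstream of the CCDS start and 5161 bp apart, with motifs pointing away from each other. The third, at chr4:97676128-97676263, had a signal of 139.1 and ranks of 20863 and 20315. Of the other flank peaks of Nfia, 1 lay at the start of the noncoding gene Gm12676 (signal 69.3). It overlapped another optimal peak 200 bp away, and both overlapped the same peak in each library. Nfib had flank peaks of 137.7 (ranks 21534 and 20362) near the far end of the upstream flank and of 40.5 and 38.4 downstream. The peak of 137.7 lay inside the gene Zdhhc21.

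The flank of Nfic held the strongest of the 85 peaks (chr10:81502678-81502988), inside the neighbouring gene Gna15, which encodes a G protein subunit. Its signal was 524.5, higher than 99.7% of optimal peaks, and it ranked 244 and 162 in the 2 libraries. The next of the Nfic flanks lay on the 3′ side, at chr10:81395213-81395472 (354.9, ranks 4430 and 4526) and chr10:81389860-81390107 (336.4, ranks 4841 and 6144). The first of these lay inside Smim24. At Nfix the strongest flank peaks stood together upstream of the gene, at chr8:84815606-84815883 (443.9, ranks 1195 and 1123), chr8:84813116-84813374 (357.5, ranks 4303 and 4305) and chr8:84823728-84823983 (353.0, ranks 4086 and 4873). With another peak, of 211.0, they span from 10.7 to 23.5 kb upstream of the CCDS start, and the motifs of all 4 lay on the gene's strand. The strongest, of 443.9, lay inside the neighbouring gene Dand5.

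Some flank peaks stood within 1 kb of start sites of other genes. This was so for 16 of the 49, 8 at Nfic, 7 at Nfix and 1 at Nfia, where 21.0% of all optimal peaks stand that close to an annotated start. At Nfic the strongest were at Gm48552 (336.4) and Hmg20b (321.7 and 130.8), the gene of a high mobility group protein, followed by Pip5k1c (120.5), which encodes a lipid kinase. At Nfix they were at Trmt1 (216.2), the noncoding gene Gm26664 (182.55) and Calr (156.1), which encodes the endoplasmic reticulum chaperone calreticulin. These peaks are counted in an NFI window although they also stand at the start of a neighbour.

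The CTCF core was present at most of the sites. A match to the consensus with at most 2 mismatches, on either strand and within 50 bp of the summit, was found in 51 of 85 peaks (60%, Wilson 95% interval 49.4 to 69.8, counting error only). Of all optimal peaks, 65.4% had one. Windows 1 kb to the left and right of the summits matched in 4 and 2 of the 85 peaks, against 2.85% and 2.98% of all optimal peaks. Nfib had a match in 9 of 11 peaks, Nfix in 18 of 26, Nfic in 19 of 34 and Nfia in 5 of 14. The median signal was 195.0 for the 51 peaks with a match and 54.5 for the rest. Over all optimal peaks these medians were 110.4 and 43.8. Among introns 21 of 32 peaks matched and in the flanks 30 of 49.

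**Figure D4:**
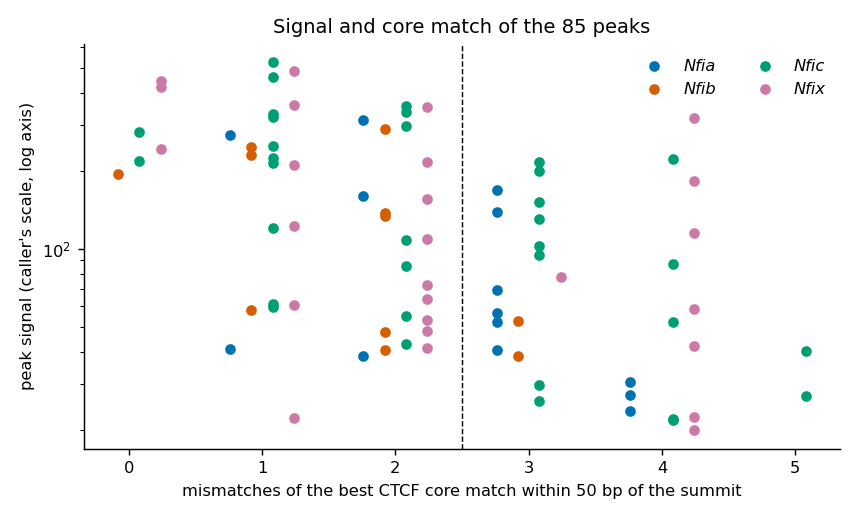
Signal of the 85 peaks (y axis, log scale) against the mismatches of the best CTCF core match within 50 bp of the summit (x axis), coloured by gene and shifted sideways for legibility. The dashed line parts matches (at most 2 mismatches) from the rest. The 6 peaks without a mismatch lie between 195.0 and 443.9, and none of them belongs to Nfia.

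Some cores recurred. The 2 matches without a mismatch in the introns of Nfix share the core CCAGCAGGGGGCGC, printed above, on opposite strands and pointing apart. This core was the best match of 174 optimal peaks, 1 of them with its summit in soft-masked repeat sequence. Nfia and Nfib share a core too, here shown with its surroundings.
Nfia upstream flank, chr4:97745976-97746005, minus strand: tcaagcggACACCAGAGGGCGCcgctttaa
Nfib intron, chr4:82542303-82542332, minus strand: tgaatctaACACCAGAGGGCGCagtatcct
Over the 30 bases of these 2 sites, 20 are identical. The sites were paired by their shared core, so the 14 bases of the core are among the 20 by selection. The core was found at 26 optimal peaks, none with its summit in a repeat, with a median signal of 268.0. Another core is shared by a peak of the Nfic window (signal 85.7) and one of the Nfix window (109.2).
Nfic downstream flank, chr10:81344620-81344649, minus strand: cctgcatgCCAGAAGAGGGCATcagatcca
Nfix upstream flank, chr8:84871548-84871577, minus strand: aactaaggCCAGAAGAGGGCATcagatccc
These 2 were identical at 23 of 30 bases, which again include the 14 of the core by which they were paired. Both summits lay in soft-masked repeats. This core was the best match at 2212 optimal peaks, of which 92.9% had the summit in a repeat, and their median signal was 43.9. Over all NFI peaks, 18 of 85 (21.2%, Wilson 95% interval 13.8 to 31.0) had the summit in a repeat, against 18.4% of optimal peaks.

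The strand of the motifs was set against that of the gene. No share over other genes was computed, so these strand counts only describe the windows. Of the 51 motifs, 30 of which were in flanks, 32 lay on the strand of the NFI gene. By gene this was 2 of 5 at Nfia, 6 of 9 at Nfib, 13 of 19 at Nfic and 11 of 18 at Nfix. Of 47 pairs of neighbouring motif-bearing peaks, 30 pointed the same way (63.8%, Wilson 95% interval 49.5 to 76.0), 8 towards each other (17.0%) and 9 apart (19.1%). Over all 40266 such pairs in the optimal set the shares were 52.6%, 23.7% and 23.7%, with distances between neighbours that differ from those in these windows. The longest run on 1 strand was at Nfix, where 7 neighbouring motifs on the minus strand spanned 100.9 kb, from 84722980 in the gene to 84823856 upstream of it, across all 4 CCDS start sites of Nfix. At Nfic the longest run was of 5 minus-strand motifs over 45.9 kb in the downstream flank.

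The 2 libraries ranked the NFI peaks alike. All 85 overlapped a peak in each single-library list. Of all 62677 optimal peaks, only 44 lacked one in replicate 1 and 271 in replicate 2. Among the 62686 strongest of both libraries, 75 of the 85 (88.2%) overlapped a peak, against 83.3% of optimal peaks. The median rank was 24363 in replicate 1 and 24112 in replicate 2. The ranks differed by at most 1.5 times for 74 of 85 peaks, a count without a share over all optimal peaks beside it. Of the 85, replicate 1 gave the better rank for 40 and replicate 2 for 45. Ranks differed more among the weak peaks. The 10 peaks with a signal under 30 had ranks that differed by a median of 1.44 times and at most 3.40 times, and 1 of the 10 was among the strongest 62686 of both libraries. That one is the Nfia peak of 23.6 at chr4:97758291-97758610, whose ranks are those of the single-library peaks it shares with its neighbour of 69.3. For the other 75 the median was 1.12 times, and 74 were among the strongest of both. The conservative set held 74 of the 85 at the same summit, where 86.5% of optimal peaks are shared. Since IDR selects peaks whose ranks repeat, these shares describe the set and do not test it.

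**Figure D5:**
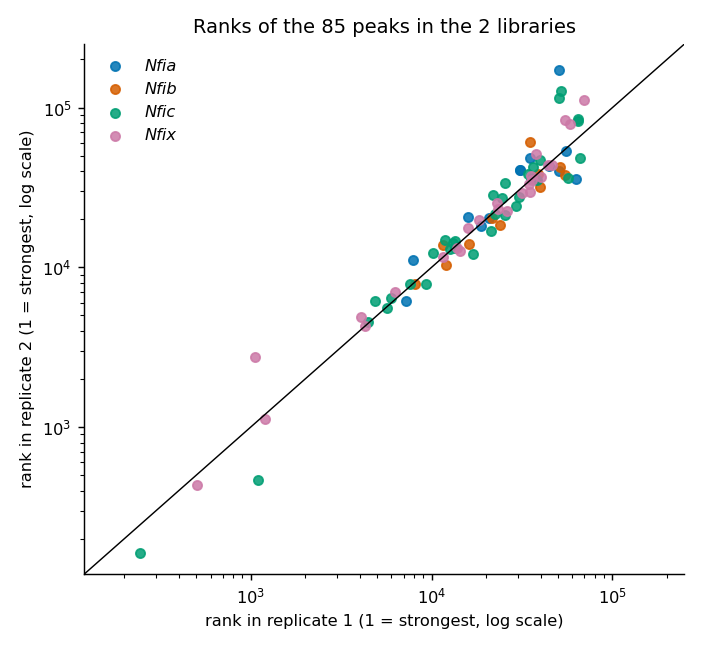
Rank of each of the 85 peaks in replicate 1 (x axis) and replicate 2 (y axis), both log scales with 1 as the strongest, coloured by gene; the line marks equal ranks. Most points lie near the line, and the point farthest above it is the Nfia start-site peak (50472 and 171398).

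The sequence that NFI proteins bind was searched in the same windows of 50 bp around each summit, on both strands. The palindrome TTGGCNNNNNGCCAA was in 0 of 85 NFI peaks, against 0.00798% of optimal peaks. At 5 of 62677 optimal peaks it is too rare for a count over 85 peaks to be informative. The shorter TTGGCA was in 3 of 85, against 4.89% of optimal peaks. The 3 were the start-site peak of Nfia, the peak at chr4:82271497-82271816 downstream of Nfib, and an Nfib intron peak with a signal of 133.7.

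Other genes tied to the family were looked up by the same start-site rule. The list of 20 holds upstream regulators and genes reported to respond to NFI proteins in glia or granule neurons. With all annotated start sites, 11 of 20 had a peak (55%), beside the 39.8% of all protein-coding genes. With CCDS start sites alone 6 of 20 had one (30%), where 35.5% of genes with such a transcript did. With the 5′ end of each gene alone 5 of 20 had one (25%), against 31.8% of protein-coding genes. The list thus stood above the background by the first rule only, and these counts were not tested. Of the peaks at any annotated start site, the strongest was at Ephb1, an ephrin receptor gene. It had a signal of 527.7 and ranks of 229 and 164 in replicates 1 and 2. Gfap, the astrocyte filament gene, followed with 510.3 (ranks 701 and 116) and a core match without a mismatch. Slc1a2, which encodes a glial glutamate transporter, had 166.6 (ranks 16562 and 19070), and Cntn2, the gene of a contactin of young granule neurons, 162.2 (ranks 20261 and 16473). Gfap and Cntn2 had no peak at a CCDS start, and of these Gfap had one at its 5′ end. Apcdd1, Ezh2 and Fabp7 had none at any annotated start site. Ezh2 encodes the histone methyltransferase of Polycomb repression and Fabp7 a fatty acid binding protein of radial glia. The median over the list was 3.70 peaks per 100 kb of window, against 3.95 for all protein-coding genes.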

How the data were processed

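The values came from the 5 deposited peak lists, which are in the narrowPeak layout on mm10 per the labels. The signal value is the authors' score for each peak (its scale is unstated), and the deposited summit offset in bp gave its position. The deposited descriptions say that single-library lists came from each library's alignments with a control alignment, and that both IDR sets came from the pooled and single-library lists. The aligner, peak caller and thresholds are not named in any source used.

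Summits were assigned to GENCODE vM21 genes in the order start site (within 1 kb), exon, intron, flank, and CCDS transcripts are those so tagged there. The 9 optimal peaks outside chromosomes 1 to 19, X and Y were dropped. Sequence came from the GRCm38.p6 assembly, in which lower case marks repeats. A peak's rank in a library is that of the strongest overlapping peak. The motif was the CTCF core consensus (14 bp), and strand ties were left out of pairs. The search and counting code was tested on simulated sequences. Work was done in Python 3.11.15 with pandas 2.3.3, pysam 0.24.0, scipy 1.17.1 and samtools 1.23.1.

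The labels give 1 group, so no test between groups was made, and percentiles describe where a value lies. Named were all start-site and exon peaks, the 3 strongest intron and flank peaks of each gene, the 3 strongest peaks at other genes' starts, and, of the list, the 4 strongest and the first 3 alphabetically without a peak. Others were named after their values were seen. Members and lists were chosen with earlier results of these data known. Alternatives changed the peak set, distances, start sites, mismatches and motif windows.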

Additional observations from a re-analysis of the deposited data

How the results depend on the processing

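Of 66 values recomputed under alternatives, 48 stayed within 1.5 times the count or within the counting interval. A count within these limits can still hold other members. In the conservative set 2 NFI genes had a start-site peak, but they were Nfib and Nfic. That set held 92 peaks in the windows, with a motif share of 56.5%, and 74 of the 85 optimal peaks had the same summit in it. Members were compared for no other alternative count than that of NFI genes with a start-site peak. With the stronger 31343 optimal peaks the 4 windows held 49 peaks in all, with 5 at Nfia, 6 at Nfib and 15 at Nfix, because fewer peaks entered, and 0 genes had a start-site peak. Flanks of 50 kb, which shorten the window, left 20 peaks at Nfic. RefSeq gene bounds, chosen after seeing the data, gave 19 window peaks at Nfia, which they extend upstream, 6 at Nfib, whose upstream transcript they lack, 29 at Nfic and 26 at Nfix. The gene bodies then held 18, 1, 5 and 7. Without one replicate the total was 90 to 95, with 14 to 15 at Nfia, 12 at Nfib, 34 to 37 at Nfic and 30 to 31 at Nfix, and 1 to 3 genes had a start-site peak (pathway list 11 to 13). The number of NFI genes with a start-site peak was 1 within 500 bp, 0 when just the 5′ end of a gene was used and 0 with CCDS start sites, also chosen after seeing the data. With these last 2 rules the pathway list had 5 and 6 genes. Allowing 1 mismatch gave a motif share of 31.8%, and allowing 3 gave 80%. No paired analysis was possible because the labels give a single group. Unknown depth limits what weak peaks can show.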
